A study of Mus musculus with 8 samples.

Results

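The genes of thyroid hormone transport and action Serpina7, Ttr, Dio1, Thra, Thrb and Slc16a10 were followed in the livers of POMCMfn2KO and control mice. They were taken as all probe sets whose symbol in the platform annotation was one of the 6, which gave 6 of 18193 genes and 14 of the 45101 probe sets on the array: 1 for Serpina7, 4 for Ttr, 1 for Dio1, 3 for Thra, 1 for Thrb and 4 for Slc16a10. The 6 genes were chosen by role with the POMCMfn2KO minus control differences of these same arrays already known, so those differences count as used in the choice. They are given as a description, with no test.

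RNA of whole liver from 5 POMCMfn2KO mice and 3 control mice, labelled WT, was hybridised to 1 array per mouse. All 8 mice were 6 weeks old, of a mixed C57Bl/6J, FVB/N and 129 background, and had free access to chow and water. POMCMfn2KO mice lack the mitochondrial fusion gene Mfn2 in cells that express Cre under the Pomc promoter, which is active in hypothalamic POMC neurons and also in pituitary cells, so the liver itself was not targeted. Hepatic Mfn2 averaged 9.61 ± 0.24 in POMCMfn2KO and 9.88 ± 0.08 in control livers and did not pass the test over all genes (limma adjusted p = 0.169), and this level does not check the deletion. Levels are log2 values of probe sets, given as mean ± SD with n = 5 POMCMfn2KO and n = 3 control arrays, and differences are POMCMfn2KO minus control on the same log2 scale. Levels of different probe sets are not set against each other, because each probe set has its own brightness.

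The arrays had medians between 5.79 and 5.81. A probe set is called dim where its mean over the 8 arrays was below 5.80, the midpoint of the 45037 probe sets that are not array controls, ranked by mean. Hepatocyte markers were mostly bright. Of 9 measured, Alb averaged 15.25 ± 0.01 in POMCMfn2KO and 15.26 ± 0.02 in control livers. Ass1, the dimmest of the 9, averaged 7.34 ± 0.56 in POMCMfn2KO and 7.27 ± 0.09 in control livers. Summed levels here are the log2 of summed unlogged levels, so the brightest probe sets weigh most. The summed hepatocyte marker level was 17.36 to 17.56 in POMCMfn2KO and 17.31 to 17.32 in control livers. The summed level of 13 pancreatic acinar markers was 14.46 in POMCMfn2KO 2 and 14.60 in POMCMfn2KO 3, against 10.46 to 11.08 in the other 3 POMCMfn2KO livers and 10.43 to 10.46 in control livers. Differences without these 2 arrays are given for the 14 probe sets, and the part of the acinar transcripts in the results was not otherwise tested. In whole liver, fewer cells of a type and less RNA per cell cannot be told apart.

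Thyroid hormone leaves the thyroid mostly as thyroxine (T4) and travels in blood bound to thyroxine-binding globulin, transthyretin and albumin, which the liver secretes. Carriers in the cell membrane let the hormone into hepatocytes, where a selenium-containing deiodinase turns T4 into the active form triiodothyronine (T3). T3 binds nuclear receptors that sit on DNA mostly as partners of retinoid X receptors, and these receptors raise some hepatic genes of lipid and glucose metabolism and lower others. In rats, the level of thyroxine-binding globulin in blood is known to change with postnatal age.

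RefSeq promoter windows, 250 bases before to 50 bases after the gene start in GRCm38.p6, were read for 4 of the 6 genes. No window of Ttr or Thra was read here. Serpina7 and Thrb had 2 windows each, and Dio1 and Slc16a10 had 1 each. The first window of Serpina7 and those of Dio1 and Slc16a10 are printed because Serpina7 had the largest difference of the 14 probe sets and because Dio1 and Slc16a10 were at opposite extremes in 1 array, as described below. Capitals mark 3 motifs, chosen after these sequences had been seen and searched on both strands: AGGTCA, the core that thyroid hormone receptors and related nuclear receptors bind; GTTAAT, a core of the site of the hepatocyte factor HNF1; and TATAAA, the TATA box. None of the 3 motifs overlapped another in these windows.
Serpina7, chrX:139085187-139085486, minus strand: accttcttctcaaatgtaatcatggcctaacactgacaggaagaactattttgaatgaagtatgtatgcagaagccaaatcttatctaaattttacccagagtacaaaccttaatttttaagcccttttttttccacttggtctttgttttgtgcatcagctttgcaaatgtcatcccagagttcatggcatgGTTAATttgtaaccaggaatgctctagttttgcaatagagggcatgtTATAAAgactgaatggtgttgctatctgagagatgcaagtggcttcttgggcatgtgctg
Dio1, chr4:107307119-107307418, minus strand: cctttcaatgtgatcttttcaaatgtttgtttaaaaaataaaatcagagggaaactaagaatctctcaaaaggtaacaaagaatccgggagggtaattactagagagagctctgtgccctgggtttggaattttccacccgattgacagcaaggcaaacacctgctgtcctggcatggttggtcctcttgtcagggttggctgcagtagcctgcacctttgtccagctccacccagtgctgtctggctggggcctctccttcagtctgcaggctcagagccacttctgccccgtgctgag
Slc16a10, chr10:40142205-40142504, minus strand: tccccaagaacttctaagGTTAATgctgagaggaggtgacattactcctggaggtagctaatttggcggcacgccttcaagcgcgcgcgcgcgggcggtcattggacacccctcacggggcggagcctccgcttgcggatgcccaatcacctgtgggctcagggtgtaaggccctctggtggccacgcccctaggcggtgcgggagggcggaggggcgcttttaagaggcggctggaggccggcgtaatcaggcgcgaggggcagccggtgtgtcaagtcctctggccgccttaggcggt

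The first Serpina7 window held GTTAAT at bases 194 to 199 and TATAAA at bases 241 to 246, counted from 1 at its 5′ end, with the gene start after base 250. The Slc16a10 window held GTTAAT at bases 19 to 24, and the Dio1 window held none of the 3. The first Thrb window held AGGTCA at bases 67 to 72 and GTTAAT, on the opposite strand, at bases 207 to 212, and the second held TATAAA at bases 84 to 89. The second Serpina7 window overlaps most of the first and holds the same GTTAAT and TATAAA sites. Of all 32851 windows of this length, 16.3% held AGGTCA, 7.1% GTTAAT and 13.6% TATAAA. The tandem repeat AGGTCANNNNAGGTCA, the usual layout of a T3 response element, was in 0.0152% of windows. It was in none of the windows read for Serpina7, Dio1, Thrb and Slc16a10. The windows also differed in base composition: the first of Serpina7 had 0 CpG dinucleotides and 38.3% GC, that of Dio1 3 and 49.7%, and that of Slc16a10 26 and 65.3%, against medians of 7 and 52.7% over all windows. These matches describe the letters in the windows only.

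Serpina7, the gene of thyroxine-binding globulin, was lower in every POMCMfn2KO liver than in any control liver, and varied widely among the POMCMfn2KO livers. Its probe set, 1438617_at, read 3.36, 4.29, 5.20, 7.03 and 5.22 in POMCMfn2KO 1 to 5, against 8.33, 8.41 and 8.36 in control 1 to 3. The control livers lay within 0.08 of each other, whereas the POMCMfn2KO livers spread over 3.67, which is 12.8-fold between the lowest and the highest. Set against the control mean, the POMCMfn2KO livers were 32.1-fold, 16.8-fold, 8.94-fold, 2.52-fold and 8.83-fold lower in the same order. The difference of the means was -3.34 (SE 0.63), and -3.16 without POMCMfn2KO 2 and 3. In 4 of the 5 POMCMfn2KO livers the level was below the dim level of 5.80, so the size of these folds depends on how background was handled at the low end of the scale, and POMCMfn2KO 4 was the 1 that stayed above it.

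**Figure D1:**
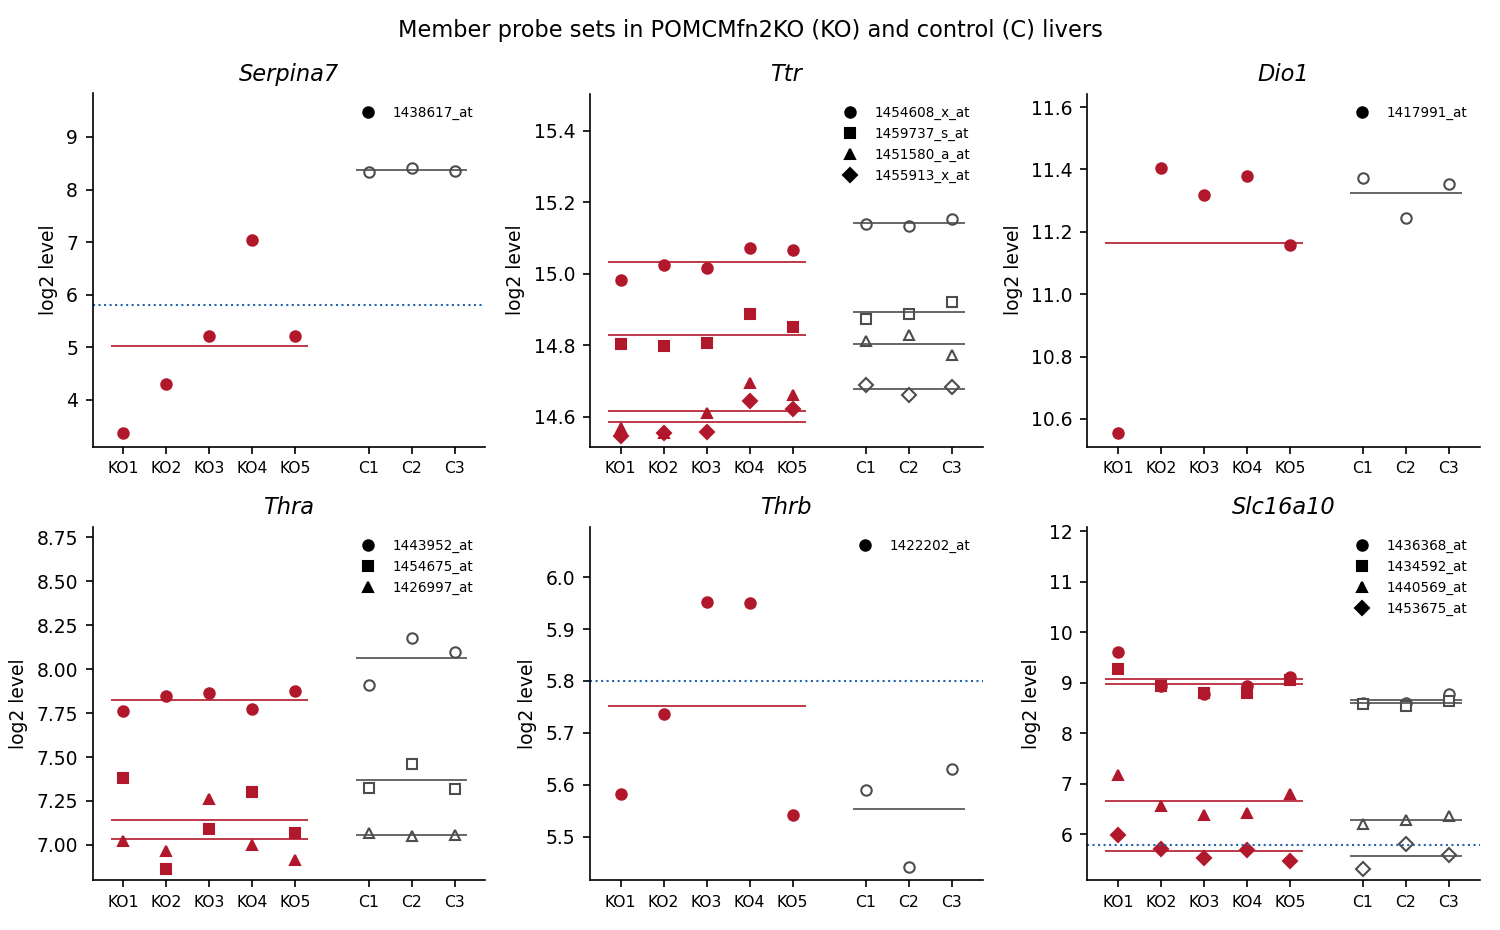
Log2 level (y axis, a scale of its own in each panel) of the 14 probe sets of the 6 genes in each POMCMfn2KO array (KO1 to KO5, filled) and control array (C1 to C3, open); horizontal lines are group means and the dotted line is the dim level of 5.80. Serpina7 ran between 3.36 and 7.03 in POMCMfn2KO and between 8.33 and 8.41 in control livers, and Dio1 stood at 10.55 in POMCMfn2KO 1.

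Ttr, the gene of transthyretin, which carries T4 and, through retinol-binding protein, vitamin A, differed far less. Its brightest probe set, 1454608_x_at, read 14.98, 15.02, 15.02, 15.07 and 15.07 in POMCMfn2KO 1 to 5, against 15.14, 15.13 and 15.15 in control 1 to 3. All 5 POMCMfn2KO livers were below all 3 control livers on this probe set, by a mean difference of -0.11 (SE 0.06), or 1.08-fold. The groups were also apart on 1451580_a_at, with a difference of -0.19 (SE 0.06), and on 1455913_x_at, with -0.09 (SE 0.06). On 1459737_s_at they overlapped, with POMCMfn2KO 4 at 14.89 and control 1 at 14.87, and the difference was -0.06 (SE 0.06). Without POMCMfn2KO 2 and 3 the 4 differences, in the same order, were -0.10, -0.16, -0.07 and -0.05. POMCMfn2KO 4 had the highest level of the 5 POMCMfn2KO livers on all 4 probe sets, as it had for Serpina7. All 4 probe sets lay at the top of the array's range, where differences in brightness are hard to resolve, and 2 of the 4 are of the x_at type, whose probes can bind related transcripts. Ttr is also made by pancreatic islets and the choroid plexus. Of 6 islet markers measured 4 were dim, among them the glucagon gene Gcg, while Ins2, an insulin gene, was at 7.10 ± 0.16 in POMCMfn2KO and 7.03 ± 0.21 in control livers and the somatostatin gene Sst at 6.34 ± 0.08 in POMCMfn2KO and 6.39 ± 0.11 in control livers; the summed level of the 6 was 8.17 to 8.43 in POMCMfn2KO and 8.25 to 8.41 in control livers. Of 5 choroid plexus markers 4 were dim and Clic6 was at 6.59 ± 0.05 in POMCMfn2KO and 6.65 ± 0.03 in control livers, with a summed level of 7.62 to 7.72 in POMCMfn2KO and 7.68 to 7.75 in control livers. The part of these cells in the Ttr level was not tested.

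Other plasma carriers of hormones, vitamins and lipids give a frame for these binding proteins. Of 7 measured, all tested, none passed the test over all genes at an adjusted p under 0.05, where 18.0% of 11986 genes passed; 1 had an unadjusted p under 0.05. Albumin, the carrier of lowest affinity for T4, differed by -0.01 (SE 0.05), and Rbp4, the partner of transthyretin, by 0.10 (SE 0.05). The gene below 0.05 unadjusted was Serpina6, the corticosteroid-binding relative of Serpina7, named here after its values were seen. Serpina6 read 8.81, 10.09, 10.12, 10.94 and 10.06 in POMCMfn2KO 1 to 5, against 11.20, 11.17 and 11.16 in control 1 to 3, a difference of -1.17 (SE 0.37, limma adjusted p = 0.0554). It was below every control liver in every POMCMfn2KO liver, and as with Serpina7 it was lowest in POMCMfn2KO 1 and highest in POMCMfn2KO 4. Such separation was not particular to Serpina6 among these carriers. The groups were also apart for Apoa2 (-0.09) and Apoe (-0.07), lower in POMCMfn2KO, and for Rbp4 (0.10) and Apoa1 (0.12), higher in POMCMfn2KO. Those of Alb and Apob overlapped. All of these carriers but Serpina6 lay near the top of the array's range, as Ttr did, where differences in brightness are hard to resolve.

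Dio1, the gene of the type 1 deiodinase that makes T3 from T4 in liver, was within the control range or close to it in all POMCMfn2KO livers but 1. Probe set 1417991_at read 10.55, 11.40, 11.32, 11.38 and 11.16 in POMCMfn2KO 1 to 5, against 11.37, 11.24 and 11.35 in control 1 to 3. Of the POMCMfn2KO livers, 2 were above all controls and 2 below them, so the groups overlapped. The mean difference was -0.16 (SE 0.17), and POMCMfn2KO 1 alone was 1.70-fold below the control mean. Without this array the difference was -0.01, between 11.31 ± 0.11 in the other POMCMfn2KO livers (n = 4) and 11.32 ± 0.07 in control livers, and without POMCMfn2KO 2 and 3 it was -0.29.

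Slc16a10, the gene of MCT10, a membrane carrier of T3 and aromatic amino acids, was higher in POMCMfn2KO livers on its 3 probe sets above the dim level. The brightest, 1436368_at, read 9.60, 8.94, 8.78, 8.94 and 9.11 in POMCMfn2KO 1 to 5, against 8.60, 8.60 and 8.78 in control 1 to 3. The groups touched on it, since POMCMfn2KO 3 lay just under control 3, and the difference was 0.41 (SE 0.16), or 1.33-fold. On 1434592_at and 1440569_at all 5 POMCMfn2KO livers were above all 3 control livers, with differences of 0.38 (SE 0.11) and 0.39 (SE 0.16). The fourth probe set, 1453675_at, was dim in both groups, at 5.68 ± 0.20 in POMCMfn2KO and 5.57 ± 0.25 in control livers, and gave 0.11 (SE 0.13).

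POMCMfn2KO 1, lowest in Dio1, was highest in Slc16a10 on all 4 probe sets, and POMCMfn2KO 5 was next lowest in Dio1 and next highest in Slc16a10 on the 3 brighter of these. On the 3 brighter probe sets POMCMfn2KO 1 was 1.92-fold, 1.60-fold and 1.86-fold above the control mean. Without this array the Slc16a10 differences were 0.28, 0.30 and 0.26, and without POMCMfn2KO 2 and 3 they were 0.56, 0.45 and 0.51, with 0.15 on the dim probe set. Among the 5 POMCMfn2KO livers, POMCMfn2KO 1 was the lowest on 5 of the 14 probe sets and the highest on 5, which include the 4 of Slc16a10. POMCMfn2KO 4 was also the highest on 5, and was the lowest on 1.

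**Figure D2:**
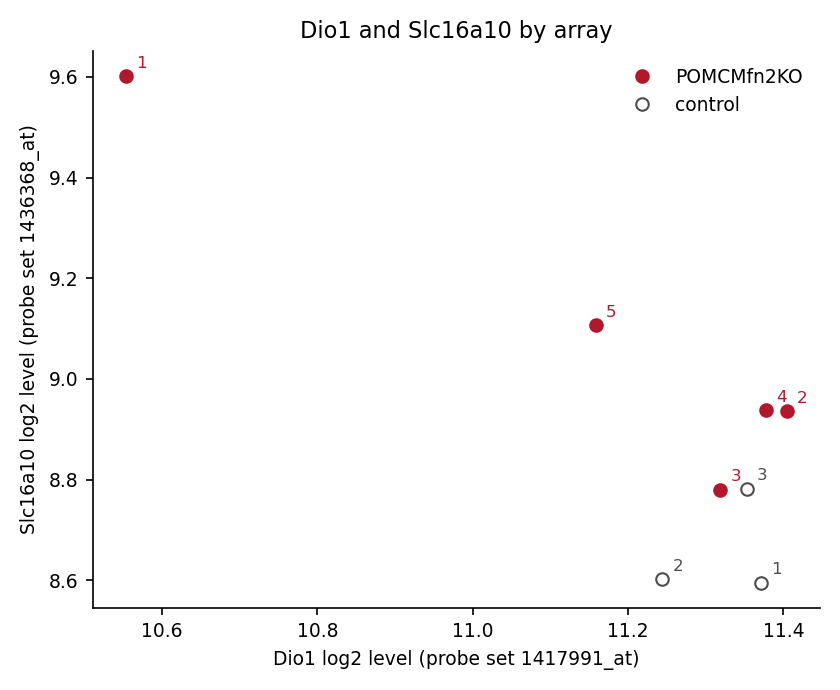
Log2 level of Slc16a10 (y axis, probe set 1436368_at) against that of Dio1 (x axis, probe set 1417991_at), 1 point per array, numbered by replicate. POMCMfn2KO 1 lies apart, at 10.55 for Dio1 and 9.60 for Slc16a10, and the control arrays lie between 11.24 and 11.37 for Dio1 and between 8.60 and 8.78 for Slc16a10.

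Of the thyroid hormone receptor genes, Thra had small differences that varied among its probe sets, and Thrb, described below, was too dim to read. Thra encodes the alpha receptor and, by alternative splicing, a form that does not bind T3; the annotation used here does not tell which transcripts its 3 probe sets detect. The brightest, 1443952_at, read 7.76, 7.85, 7.86, 7.77 and 7.87 in POMCMfn2KO 1 to 5, against 7.91, 8.18 and 8.10 in control 1 to 3. The groups were apart on this probe set, with a difference of -0.24 (SE 0.07). On 1454675_at the difference was -0.23 (SE 0.11) and on 1426997_at -0.03 (SE 0.08), and the groups overlapped on both. Without POMCMfn2KO 2 and 3 the 3 differences were -0.26, -0.12 and -0.08. On the brightest probe set the difference was -0.31 without control 1, the lowest of the controls, and -0.18 without control 2, the highest, and the mean of the 3 probe sets gave -0.16.

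Thrb encodes the beta receptor, the main thyroid hormone receptor of hepatocytes, yet its probe set, 1422202_at, was dim and says little about its level. It read 5.58, 5.74, 5.95, 5.95 and 5.54 in POMCMfn2KO 1 to 5, against 5.59, 5.44 and 5.63 in control 1 to 3. The groups overlapped and the difference was 0.20 (SE 0.11), and 0.14 without POMCMfn2KO 2 and 3. Of the 8 values, 2 reached the dim level, those of POMCMfn2KO 3 and 4.

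**Figure D3:**
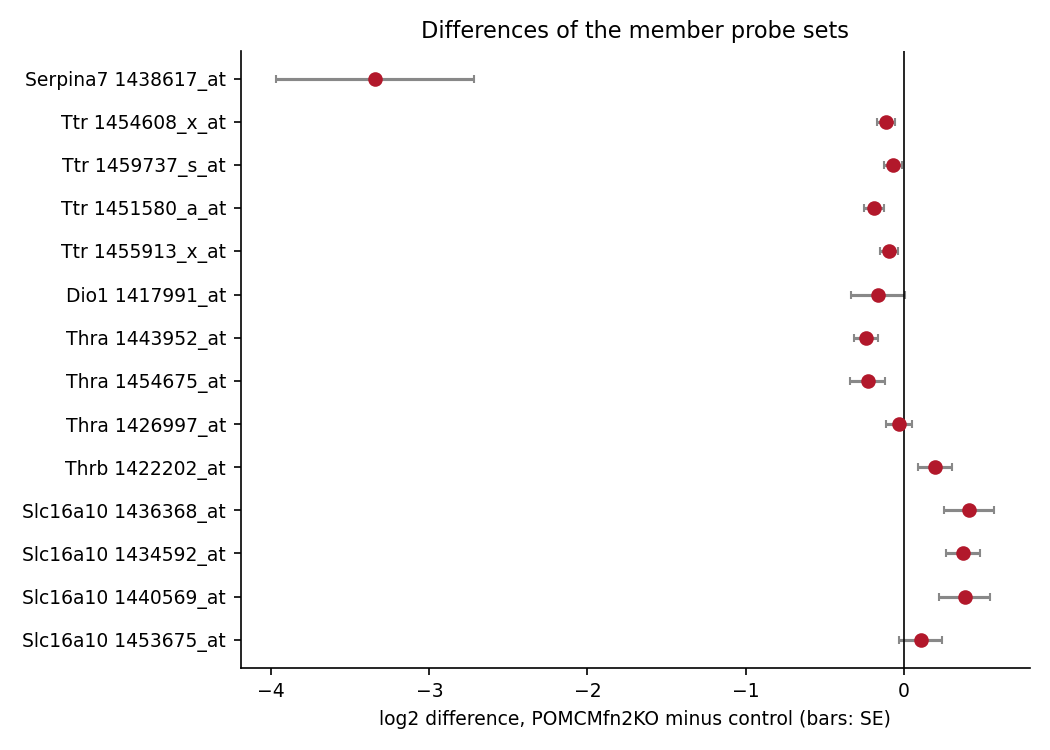
Difference in log2 level, POMCMfn2KO minus control (x axis), for each of the 14 probe sets; points are differences of the means and bars are standard errors from limma. Serpina7 lies at -3.34 and the other 13 probe sets lie between -0.24 and 0.41.

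Over the 14 probe sets, the median difference was -0.08, beside 0.01 over all 45037 non-control probe sets. In limma fits, 7.33% of all non-control probe sets and 18.0% of all genes tested passed an adjusted p under 0.05, and no test is given for the 6 genes. The groups did not overlap on 7 of the 14 probe sets, 5 lower and 2 higher in POMCMfn2KO, where 17.2% of all probe sets did not overlap, 8.78% lower and 8.47% higher. These counts describe the contrast known when the genes were put together, and nothing is read from them.

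Other genes of the pathway were read from 5 lists by role, compiled from general knowledge. Of 68 entries 59 were measured and 55 were bright enough to test: 8 rose and 9 fell in POMCMfn2KO liver, or 30.9%, beside 18.0% of all genes tested (7.02% rose and 10.9% fell), with a median difference of -0.05 beside -0.02 over all genes. Without POMCMfn2KO 2 and 3, 4 rose and 5 fell, or 16.4%, beside 5.36% of all genes. Without control 1, 2 or 3 the total was 8 to 10, or 14.5% to 18.2%, beside 6.82% to 7.18% of all genes, and without POMCMfn2KO 2 it was 11, or 20.0%, beside 12.5%. Dio3 was not analysed here. The adjusted p-values below are from limma with Benjamini-Hochberg adjustment over all 11986 genes.

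Among the other membrane carriers, 1 of 8 tested rose and 1 fell, with a median difference of -0.01. Slco1a1, an organic anion transporter that takes up T4 and sulfated hormone, read 12.14, 13.07, 13.08, 12.81 and 13.10 in POMCMfn2KO 1 to 5, against 11.45, 11.61 and 11.50 in control 1 to 3, and rose by 1.32 (SE 0.20, adjusted p = 0.00388). Slco2b1, an organic anion transporter of the same superfamily, fell by 0.67 on the log2 scale, to 10.47 ± 0.19 in POMCMfn2KO against 11.14 ± 0.07 in control livers (adjusted p = 0.00462); its dimmest probe set, at a mean of 5.95, gave 0.24. Slco1b2, the main hepatic member of the family, gave -0.07 on its brightest probe set (adjusted p = 0.775), but its probe sets differed. Those at means of 12.81 and 9.65 gave -0.43 (SE 0.13) and -0.14 (SE 0.27), and its dim ones gave 0.04 and -0.04. The amino acid carrier genes Slc7a5 and Slc3a2 gave 0.13 and -0.02 without passing. POMCMfn2KO 1 had the lowest Slco1a1 of the POMCMfn2KO livers, though above all controls.

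Among the genes of deiodination, selenoprotein synthesis and conjugation, 1 of 10 tested rose and 1 fell. Secisbp2, which binds the selenocysteine insertion element that deiodinase transcripts carry, rose to 8.48 ± 0.07 in POMCMfn2KO, against 8.17 ± 0.09 in control livers (difference 0.30, adjusted p = 0.0168). Sult1b1, a sulfotransferase that accepts thyroid hormones, read 8.61, 7.52, 7.82, 8.67 and 7.13 in POMCMfn2KO 1 to 5, against 9.32, 9.12 and 9.09 in control 1 to 3, and fell by 1.23 on the log2 scale (adjusted p = 0.0328). Iyd, which recovers iodide from iodotyrosines, gave -0.38 without passing (adjusted p = 0.0561), and its groups overlapped. Dio2, the deiodinase of brain and brown fat, was at 6.14 ± 0.09 in POMCMfn2KO and 6.17 ± 0.16 in control livers. Secisbp2 lost its call without control 2 or 3, with the mean of its probe sets (difference 0.27), and without POMCMfn2KO 2 and 3 (adjusted p = 0.0698), with differences of 0.25 to 0.33 where arrays were left out. Fitting the replicate number as a block also ended this call (adjusted p = 0.0539). Sult1b1 lost it without any single control, without POMCMfn2KO 2 or 3, and without both (adjusted p = 0.155), with differences of -1.27 to -1.04.

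Of 16 genes tested in the list of receptor partners, coregulators and Nr1d1, 2 rose and 2 fell, with a median difference of -0.00. Hdac3, the histone deacetylase of the corepressor complex that unliganded receptors recruit, fell to 8.78 ± 0.10 in POMCMfn2KO, against 9.26 ± 0.01 in control livers (difference -0.48, adjusted p = 0.00307). Crebbp, a histone acetyltransferase and coactivator, rose to 8.93 ± 0.08 in POMCMfn2KO, against 8.44 ± 0.10 in control livers (difference 0.49, adjusted p = 0.00311), but 2 other probe sets above the dim level gave 0.06 and 0.02, and its call was lost with the mean of its probe sets (difference 0.20, adjusted p = 0.185). Rxrb, a retinoid X receptor, rose by 0.28 (adjusted p = 0.026), while Rxra, the main one of liver, gave -0.21 without passing (adjusted p = 0.151). Nr1d1, the clock gene of REV-ERB alpha, whose transcript overlaps the end of Thra on the opposite strand, fell to 5.82 ± 0.14 in POMCMfn2KO, against 6.24 ± 0.20 in control livers (difference -0.43, adjusted p = 0.0269). Rxrb lost its call without any single control, without POMCMfn2KO 2, and without POMCMfn2KO 2 and 3 (adjusted p = 0.0987), with differences of 0.25 to 0.31. Nr1d1 lost it without control 2 or 3, without POMCMfn2KO 2 or 3, and without both (adjusted p = 0.121), with differences of -0.43 to -0.33. With the replicate number as a block, Rxrb (adjusted p = 0.0599) and Nr1d1 (adjusted p = 0.0532) lost their calls too.

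Genes that T3 raises in rodent liver went both ways: of 17 tested, 4 rose and 2 fell, with a median difference of -0.05. Thrsp, a lipogenic nuclear protein and a classic T3 response gene, read 9.74, 8.67, 9.10, 9.83 and 8.86 in POMCMfn2KO 1 to 5, against 11.22, 11.32 and 11.26 in control 1 to 3, and fell by 2.03 on the log2 scale (adjusted p = 0.0016); of its other probe sets 1 gave -1.61 and 1 gave -0.04. Its relative Mid1ip1 fell by 0.62 on the log2 scale (adjusted p = 0.00304). Fgf21 rose by 1.29 (adjusted p = 0.000478), and Gpd2, the mitochondrial glycerol phosphate dehydrogenase long used as a readout of thyroid state, rose to 10.18 ± 0.29 in POMCMfn2KO, against 9.65 ± 0.02 in control livers (difference 0.52, adjusted p = 0.0407). The glucose-producing enzyme genes G6pc and Pck1 also rose, by 0.60 and 0.36. Other T3 response genes did not pass, Me1, the cytosolic malic enzyme, at -0.16 (SE 0.19, adjusted p = 0.617), and Klf9, a transcription factor gene, at -0.02 (SE 0.09, adjusted p = 0.886). The other Me1 probe set gave 0.14 (SE 0.16). Those of Klf9 ran from -0.04 to 0.29, the highest on a probe set at a mean of 7.96. Gpd2 lost its call without any single control, without POMCMfn2KO 2 or 3, with the mean of its probe sets (difference 0.40), and without POMCMfn2KO 2 and 3 (adjusted p = 0.132), with differences of 0.47 to 0.56 where arrays were left out. The Gpd2 call was also lost with the replicate number as a block (adjusted p = 0.0591). G6pc lost its call without any single control, with differences of 0.59 to 0.61, and Pck1 without control 1 or 3 or without POMCMfn2KO 2 and 3 (adjusted p = 0.0667), with differences of 0.32 to 0.37.

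Of 4 genes that T3 lowers in rodent liver, 3 fell and none rose. Srebf1, the gene of a lipogenic transcription factor, fell by 1.52 on the log2 scale (adjusted p = 0.000182). Scd1, which makes monounsaturated fat, read 13.99, 13.91, 14.02, 14.75 and 14.53 in POMCMfn2KO 1 to 5, against 14.93, 14.93 and 14.95 in control 1 to 3, and fell by 0.70 on the log2 scale (adjusted p = 0.0327), with -2.38 on its other probe set. Gsta2, a glutathione transferase, fell to 8.97 ± 0.52 in POMCMfn2KO, against 9.86 ± 0.08 in control livers (adjusted p = 0.0397). Cyp8b1, the sterol hydroxylase that sets the cholic acid share of bile, gave -0.16 (adjusted p = 0.585). Scd1 lost its call without any single control, without POMCMfn2KO 2 or 3, and without both (adjusted p = 0.139), with differences of -0.70 to -0.51. Gsta2 lost it in the same cases and without POMCMfn2KO 1, with adjusted p = 0.155 without POMCMfn2KO 2 and 3 and differences of -0.92 to -0.70.

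**Figure D4:**
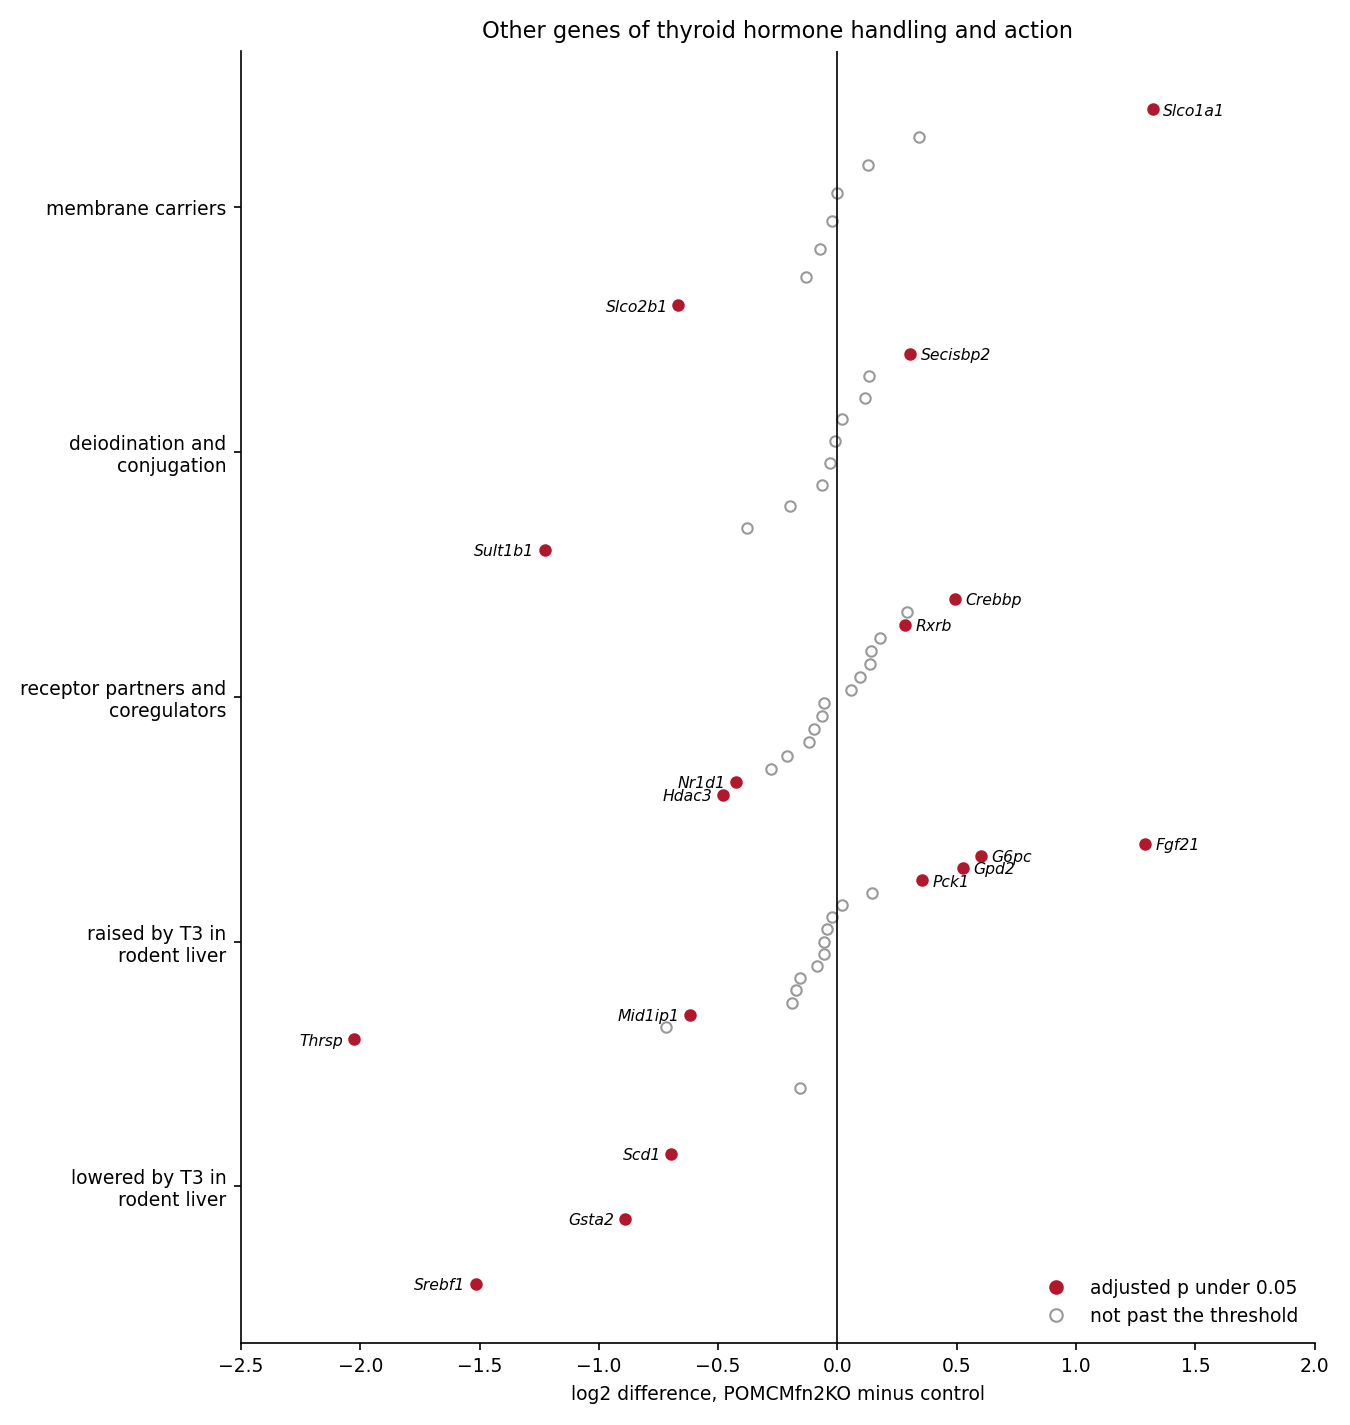
Difference in log2 level, POMCMfn2KO minus control (x axis), of the 55 tested genes in 5 lists by role; filled points passed an adjusted p under 0.05 in limma and open points did not. The carriers, the deiodination genes and the coregulators each have calls on both sides of 0, the genes T3 raises run from -2.03 for Thrsp to 1.29 for Fgf21, and the 3 calls among genes T3 lowers lie at -0.70 to -1.52.

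The genes whose levels over the 8 arrays were most like those of the 6 were ranked by Pearson's r, which mixes the group difference with the spread inside the groups and is given as a description only. For Serpina7 these were Dhrs7 (0.996), a dehydrogenase of the short-chain family, M6pr (0.994), a mannose-6-phosphate receptor, and Ube2v2 (0.992). Their own differences were -1.35, -0.32 and -0.14, so their range was far narrower than that of Serpina7. For Ttr they were 2410002F23Rik, Carhsp1 and Nqo2, for Dio1 Syt1, Fabp1 and Rnmt, for Thra Tspo, Zfp995 and Fam20b, for Thrb Stk32a, Ccs and Gm17753, and for Slc16a10 Afap1l1, Mrpl12 and Rpp30, with r between 0.934 and 0.993. Fabp1, the liver fatty acid-binding protein gene, stood like Dio1 lowest in POMCMfn2KO 1, at 14.49 there against 14.85 to 14.93 in the other POMCMfn2KO livers and 14.90 to 14.91 in control livers.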

How the data were processed

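The authors deposited log2 levels per probe set; RMA and the affy package are named in the submitters' processing notes, and versions are not given in the sources used here. The values were used as they stand, and scanner files were not used here. Microarray levels have no sequencing depth, and precision is limited by having 5 and 3 arrays. Of 45101 probe sets, 64 were controls; 34945 had exactly 1 symbol in the platform annotation, 932 several and 9160 none. Each of 18193 genes was represented by its brightest probe set on average, and those with a mean below 5.80 were left out, which left 11986. POMCMfn2KO was compared with control by limma 3.58.1 in R 4.3.3 (lmFit and eBayes, 2-sided, Benjamini-Hochberg, threshold 0.05), over these genes and over all 45037 probe sets that are not controls. The code was tested on simulated data. The labels call the arrays biological replicates and give no sex, collection time or batch.

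The 6 genes, the lists and the tests were chosen with earlier results of these data known. Genes named beside the 6 were those of the thyroid and plasma carrier lists that passed the test, at most 6 per list, with Thrsp, Me1, Klf9, Dio2 and Rxra whatever their result, and the 3 genes most like each of the 6; other names were chosen after their values were seen. Same-numbered arrays did not deviate from their group means together (r of 0.05, 0.07 and -0.04), so the numbers were not taken as pairs. Alternatives changed the filter, the probe set rule, the scaling, the variance model, the significance threshold and the arrays used; centring on the median of the tested genes was added after seeing the data. Promoter windows are from RefSeq. Plots were made in Python 3.11.15 with matplotlib 3.10.9.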

Additional observations from a re-analysis of the deposited data

Results flagged for a closer look

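In 31 sets of the 5 POMCMfn2KO values (the 14 probe sets and the 17 called pathway genes), 3 held 1 sample far from the other 4 by Dixon's criterion, which chance meets in about 1 of 20. Dio1 was 10.55 in POMCMfn2KO 1, against 11.16 to 11.40 in the other 4. Hdac3 was 8.96 in POMCMfn2KO 4, against 8.72 to 8.75 in the other 4. Crebbp was 9.07 in POMCMfn2KO 5, against 8.87 to 8.92 in the other 4.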

How the results depend on the processing

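The 6 differences kept their sign in all alternatives run for them: Serpina7 ran from -4.08 (replicate block) to -2.93 (without POMCMfn2KO 1), Ttr from -0.13 to -0.09, Dio1 from -0.29 to -0.01, Thra from -0.31 to -0.16, Thrb from 0.14 to 0.25 and Slc16a10 from 0.28 to 0.56. Thra gave -0.16 with the mean of its probe sets and -0.31 to -0.18 when 1 array was left out. Leaving out 1 array, 816 to 2759 of the genes, 988 to 4481 of the probe sets and 8 to 21 of the pathway genes passed. Without POMCMfn2KO 2 and 3 together the counts were 644, 979 and 9, and at a threshold of 0.01 they were 702, 1024 and 8; the cause was not tested for the left-out arrays. With the replicate block 1891 genes and 15 pathway genes passed, where the numbers show no pairing. Centring on the median of the tested genes gave 1055 rising and 1119 falling genes, against 842 and 1310. The control arrays varied less than the POMCMfn2KO arrays for most of the 14 probe sets, while limma assumes 1 spread, and only 3 controls set the comparison. Serpina7 in 4 POMCMfn2KO arrays and Thrb in 6 of 8 arrays lie below the dim level, and Ttr lies near the top of the scale, where differences are least certain.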

Other observations

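Marker lists of the cell types that whole liver or its surroundings could add were read in the same fit, as values only. Among 9 hepatocyte markers tested, 1 rose, Cps1, a urea cycle enzyme gene, by 0.31 (limma adjusted p = 0.0264). Among 3 lymphocyte and granulocyte markers tested, 1 fell, S100a9, a calcium-binding protein gene of neutrophils, to 5.89 ± 0.12 in POMCMfn2KO against 7.45 ± 0.11 in control livers (n = 5 and 3, limma adjusted p = 1.27e-05), and the summed level of the 9 measured was 8.73 to 8.91 in POMCMfn2KO and 9.26 to 9.41 in control livers. Among 7 endothelial markers tested 2 rose, Stab2, a scavenger receptor gene of liver sinusoids, by 0.55 and Ehd3 by 0.41 (limma adjusted p = 0.0107 and 0.0306), with summed levels of 12.00 to 12.39 in POMCMfn2KO and 11.78 to 12.11 in control livers.

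None of the tested markers of the other 6 cell types passed. The summed level of 10 macrophage markers was 12.94 to 13.68 in POMCMfn2KO and 13.45 to 13.76 in control livers, that of 8 stellate cell markers 13.01 to 13.14 and 12.92 to 13.05, and that of 5 bile duct markers 7.82 to 8.08 and 7.75 to 8.13. The tested markers of these lists had median differences of -0.24, 0.00 and -0.03, in the same order, beside -0.02 over all genes. The 12 acinar markers tested had a median difference of 1.77, and their summed level stood apart in POMCMfn2KO 2 and 3. The part of these cell types in the thyroid hormone genes was not tested.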
